A study of Mus musculus with 32 samples.

Results

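A20, the product of Tnfaip3, and the proteins that work with it in editing ubiquitin chains were followed at the RNA level in adipose tissue macrophages. The 9 genes are Tnfaip3, the A20-binding proteins Tnip1, Tnip2 and Tnip3, the adaptor Tax1bp1, the ubiquitin ligases Itch and Rnf11, and the deubiquitinases Cyld and Otud7b. They were taken by symbol from count tables of 24421 genes. All 9 were found, and all 9 are among the 13453 genes that passed a filter on low counts. Macrophages had been sorted from epididymal fat of C57BL/6J mice after 12 weeks of high-fat feeding (HFD) or standard feeding (SD). KO mice carried an A20 knockout that the labels call myeloid-specific, and WT mice were wild type. The labels used here name neither the driver of the deletion nor the age or sex of the mice. CD11c+ cells were sorted as high for CD11c and low for CD206, and CD206+ cells as high for CD206 and low for CD11c. The 8 groups are CD11c+ KO HFD, CD11c+ WT HFD, CD11c+ KO SD, CD11c+ WT SD, CD206+ KO HFD, CD206+ WT HFD, CD206+ KO SD and CD206+ WT SD, with 4 libraries each.

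When TNF receptors, Toll-like receptors or the interleukin-1 receptor are engaged, ubiquitin chains are built on signalling proteins such as RIPK1, TRAF6 and NEMO, and the kinases that free NF-kB are recruited to these chains. A20 binds such chains, trims them, and helps to attach others that mark its targets for degradation. TNFAIP3 is itself switched on by NF-kB, so that A20 closes a negative feedback loop, and macrophages without it respond more strongly to inflammatory stimuli. The ABIN proteins are named for binding A20, and ABIN-1 and ABIN-2, the products of Tnip1 and Tnip2, also bind ubiquitin chains. TAX1BP1, ITCH and RNF11 assist A20 at its targets, and CYLD and OTUD7B (also called Cezanne) remove ubiquitin chains independently of it.

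Promoters are shown for the members in which the consensus of NF-kB binding was found and whose counts changed with genotype, diet or population. The sequences are those of RefSeq on GRCm38.p6, with 250 bases before and 50 bases after a start site, and 6 of the 9 members were matched (Tnfaip3, Tnip1, Tnip2, Tnip3, Tax1bp1 and Cyld). Capitals mark matches to the consensus on either strand, and each is read on the gene's strand, 5′ to 3′. The promoters lie at chr10:19015361-19015660 (minus strand) for Tnfaip3, chr11:54962891-54963190 (minus strand) for Tnip1, chr6:65590148-65590447 (plus strand) for Tnip3 and chr8:88696778-88697077 (plus strand) for Cyld. In the GENCODE M21 annotation the Tnip3 window lies inside the gene, which spans 65525313 to 65634040. The Tnfaip3 window lies almost wholly inside its gene, whose 5′ end is at 19015657. For Tnip3 and Tnfaip3 the start site used is thus internal to the annotated gene.
Tnfaip3: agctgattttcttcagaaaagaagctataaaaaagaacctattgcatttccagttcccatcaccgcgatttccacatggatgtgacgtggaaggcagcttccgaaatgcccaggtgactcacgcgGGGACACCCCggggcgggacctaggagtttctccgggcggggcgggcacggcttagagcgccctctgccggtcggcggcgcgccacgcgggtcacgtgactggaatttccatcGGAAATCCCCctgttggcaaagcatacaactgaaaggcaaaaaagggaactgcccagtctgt
Tnip1: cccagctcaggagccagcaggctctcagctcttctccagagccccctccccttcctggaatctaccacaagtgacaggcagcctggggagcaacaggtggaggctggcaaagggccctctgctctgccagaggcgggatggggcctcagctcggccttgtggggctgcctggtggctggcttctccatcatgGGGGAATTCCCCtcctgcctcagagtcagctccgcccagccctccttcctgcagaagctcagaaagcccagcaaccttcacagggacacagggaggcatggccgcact
Tnip3: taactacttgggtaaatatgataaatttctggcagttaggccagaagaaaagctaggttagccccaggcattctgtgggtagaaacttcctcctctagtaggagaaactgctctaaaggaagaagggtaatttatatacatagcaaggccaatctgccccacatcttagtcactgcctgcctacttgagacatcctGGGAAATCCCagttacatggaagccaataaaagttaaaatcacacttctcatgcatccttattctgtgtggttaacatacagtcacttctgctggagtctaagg
Cyld: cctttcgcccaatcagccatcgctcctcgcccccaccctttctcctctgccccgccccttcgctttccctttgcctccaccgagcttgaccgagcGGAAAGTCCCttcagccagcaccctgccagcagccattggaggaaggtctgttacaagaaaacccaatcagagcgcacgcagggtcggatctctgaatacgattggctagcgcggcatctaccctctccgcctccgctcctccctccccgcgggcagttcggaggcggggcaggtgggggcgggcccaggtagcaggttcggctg
Tnfaip3 held 2 matches, at -125 to -116 and -12 to -3 from the start site. In Tnip1 overlapping matches made up a stretch from -58 to -47, in Tnip3 the match lay at -54 to -45 and was read on both strands, and in Cyld it lay at -155 to -146. Of 2 promoters listed for Tax1bp1, 1 held a match at 35 to 44 after the start site. The promoter of Tnip2 and the second promoter listed for Tnfaip3 held none. Of 32851 promoters of the same length, 1480 held a match, or 4.51%. A match describes the letters of the window and no binding was measured here.

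Each library held 17619638 to 23832924 counts in genes, with a median of 20248934. Nothing in the labels tells whether the 4 libraries of a group are 4 mice, so the p-values speak only of the spread among these libraries, part of which may be technical. All 8 macrophage markers were detected, with sums of 5811 to 12879 CPM, where CPM is a gene's count scaled to the size of its library with TMM factors. Itgax, the gene of CD11c, lay at 146 to 379 CPM in CD11c+ libraries, and every CD206+ library was lower. In CD11c+ cells on HFD it was lower in KO than in WT, with no overlap (log2 fold change -0.71 ± 0.28, edgeR, adjusted p = 0.0463). Among CD206+ cells the WT HFD libraries stood apart at 20.7 to 50.3 CPM, against at most 8.24 CPM in the other 3 CD206+ groups (KO against WT on HFD: log2 fold change -3.34 ± 0.34, edgeR, adjusted p = 1.34e-08). Mrc1, the gene of CD206, had group means of 453 to 633 CPM in CD11c+ cells and 1458 to 1893 CPM in CD206+ cells. Genes of other cells were also read. Of 9 T and NK cell genes 8 were in the tables and summed to 23.3 to 136 CPM in KO libraries and 3.52 to 14.6 CPM in WT libraries. Of 8 neutrophil genes 7 were in the tables and summed to 54.3 to 112 CPM in KO and 8.73 to 53.2 CPM in WT. All 6 monocyte genes summed to 531 to 1786 CPM in KO and 302 to 2127 CPM in WT. Taken within each population and diet, 6 of them were higher in KO in CD11c+ cells on HFD and 3 on SD. In CD206+ cells 4 were higher on HFD and 4 on SD, and 0 were lower in any of these settings. Of all genes, 18.6%, 13.2%, 10.5% and 11.8% were higher in these settings. All 8 dendritic cell genes summed to 46.1 to 287 CPM in KO and 34.5 to 622 CPM in WT. The 14 immediate early genes, which respond to handling among other stimuli, summed to 7955 to 27431 CPM in KO and 7305 to 32157 CPM in WT, with CD206+ WT SD libraries at 25793 to 32157 CPM. Of the neutrophil genes, Ngp was at 0 in every library of CD11c+ WT HFD, CD206+ WT HFD, CD11c+ KO SD and CD11c+ WT SD, and Mmp8 in every CD206+ KO SD library; the T and NK cell and the neutrophil sums of the genotypes do not overlap. Stromal genes were lower in KO than in WT cells on HFD for 7 of 7 in both populations (median log2 fold change -2.47 in CD11c+ and -2.65 in CD206+), and higher on HFD than on SD for 7 of 7 in both WT populations. Endothelial genes were lower in KO on SD for 4 of 6 in CD11c+ and 5 of 6 in CD206+ cells. Adipocyte genes were higher in KO for 5 of 6 in CD206+ cells on HFD, while on SD 1 was higher and 2 were lower. In CD206+ WT cells 5 of these 6 were lower on HFD than on SD. Mast cell genes were higher on HFD for 4 of 5 tested in both WT populations. Of all genes, 21.8% to 38.0% were called in either direction between genotypes. Between diets 46.3% were called in CD11c+ WT and 27.7% in CD206+ WT cells. No T and NK cell, monocyte or dendritic cell gene was at 0 throughout a group. The part of other cells or of handling in the results on the 9 genes was not tested, and in bulk RNA fewer cells of a type and less RNA per cell cannot be told apart.

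Per kilobase of exon, Tnfaip3 had the most RNA of the 9 genes, with a mean level of 127 CPM per kb over the 32 libraries. Its group means ran between 46.4 CPM per kb in CD206+ KO HFD and 318 CPM per kb in CD11c+ WT SD. In CD206+ KO HFD it did not lead, since Tax1bp1 stood at 46.6 CPM per kb there. Over the 32 libraries Tax1bp1 followed at 46.1 CPM per kb, then Tnip3 at 37.6, Tnip2 at 34.3, Itch at 29.3, Rnf11 at 18.9, Tnip1 at 16.2, Cyld at 8.67 and Otud7b at 1.09 CPM per kb. The distance between the ABIN genes Tnip1 and Tnip3 changed with the group: Tnip1 stood at 11.2 CPM per kb and Tnip3 at 79 CPM per kb in CD11c+ WT SD, while in CD206+ KO SD Tnip1 stood at 23.3 and Tnip3 at 24.1 CPM per kb. Otud7b was the weakest member in each of the 8 groups, at 0.523 to 1.82 CPM per kb, and rested on 69 to 373 counts per library, the fewest of the 9.

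Tnfaip3 was lower in KO macrophages in each setting, and among WT cells it was high in CD11c+ cells of SD-fed mice. The gene spans chromosome 10 from 19000910 to 19015657 on the minus strand (GENCODE M21 on GRCm38, as for the other genes), and counts cover all of it, so reads left in KO cells give no estimate of the extent of deletion. On HFD, CD11c+ cells held 281, 203, 178 and 353 CPM in KO and 803, 641, 615 and 712 CPM in WT. On SD they held 246, 474, 443 and 322 CPM in KO and 1349, 1427, 1647 and 1426 CPM in WT. These WT libraries on SD lie above all others of the study, and no KO library reaches a WT library of either diet. In CD206+ cells on HFD the levels were 183, 219, 167 and 285 CPM in KO and 894, 691, 715 and 804 CPM in WT. On SD they were 245, 277, 314 and 214 CPM in KO and 662, 668, 738 and 486 CPM in WT. Here too the genotypes do not overlap, whereas the WT libraries of the 2 diets overlap. The log2 fold changes of KO against WT ran between -1.98 and -1.28 (edgeR quasi-likelihood test, adjusted p = 8.95e-09 to 1.33e-05), and the direction and the call held in all 56 fits of these 4 comparisons under other settings. In CD11c+ cells on SD, Lyz2, a myeloid lysozyme gene, was also lower in KO (-1.08 ± 0.13, edgeR, adjusted p = 2.25e-07). Mrc1 was higher there (0.38 ± 0.11, adjusted p = 0.0134). Of 8 macrophage markers 5 were higher and 0 lower, where 13.2% of all genes were higher. The part of these shifts in the Tnfaip3 difference was not tested.

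Within WT mice, Tnfaip3 fell in CD11c+ cells on HFD, with a log2 fold change of -1.08 ± 0.20 (SE) against SD (edgeR, adjusted p = 3.77e-05). In CD206+ WT cells the same diet gave 0.28 ± 0.19 (adjusted p = 0.294), and the difference between these diet effects was -1.36 ± 0.28 (adjusted p = 0.000357). CD11c+ exceeded CD206+ WT cells on SD by 1.20 ± 0.20 (adjusted p = 6.07e-06), whereas on HFD the value was -0.16 ± 0.19 (adjusted p = 0.581). In KO cells on SD the same population contrast gave 0.50 ± 0.20 (adjusted p = 0.0326), with overlapping libraries. That call was lost, at adjusted p = 0.0652 to 0.16, when CD11c+ KO SD replicate 2 or 3 or CD206+ KO SD replicate 1 or 4 was left out, and at 0.07 with library totals in place of TMM. The diet effect of KO cells was -0.55 ± 0.20 in CD11c+ (95% interval -0.95 to -0.15, adjusted p = 0.35) and -0.30 ± 0.20 in CD206+ cells (interval -0.70 to 0.10, adjusted p = 0.846).

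**Figure D1:**
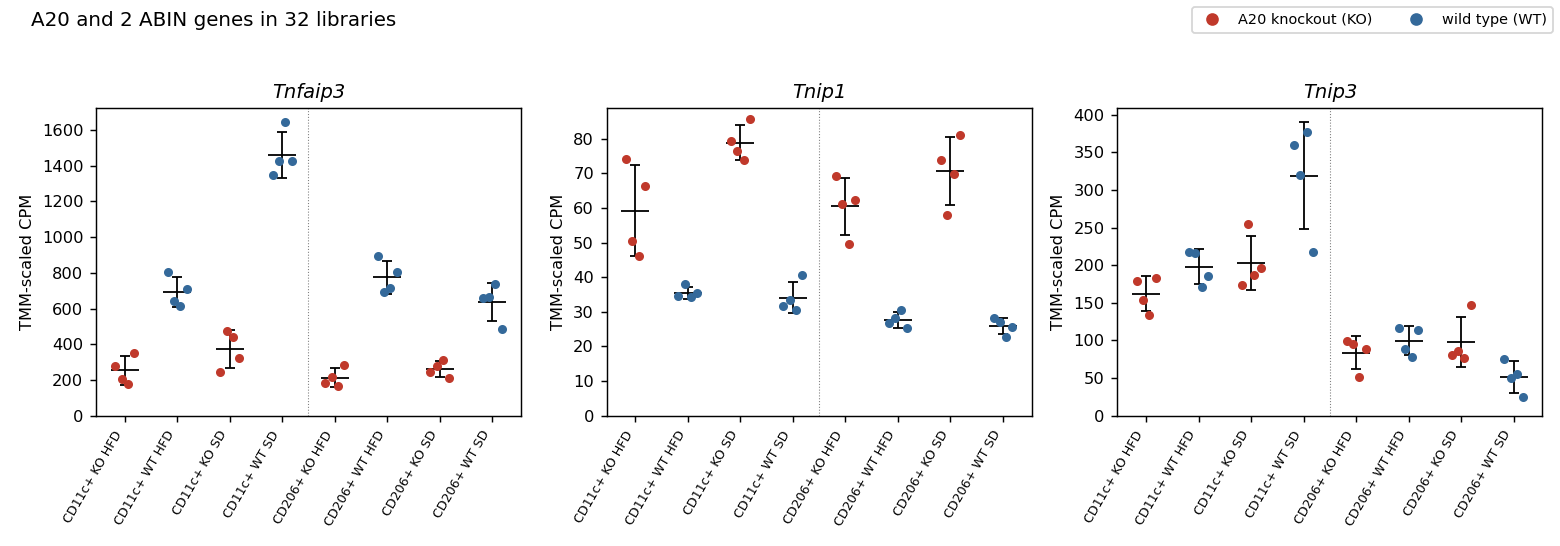
TMM-scaled CPM (vertical axis) of Tnfaip3, Tnip1 and Tnip3 in the 8 groups (horizontal axis); each point is 1 library, red for KO and blue for WT, and bars show the mean and SD of 4 libraries. The 16 KO libraries lie at 167 to 474 CPM for Tnfaip3 and at 46 to 85.6 CPM for Tnip1, against 486 to 1647 CPM and 22.8 to 40.5 CPM in the 16 WT libraries, while Tnip3 is higher in CD11c+ than in CD206+ libraries within each genotype and diet.

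Between the genotypes Tnip1 went opposite to Tnfaip3: it was higher in KO macrophages of both populations on both diets. Within a genotype the 2 genes did not run opposite. Pearson's r of their log2 CPM was 0.56 over the 16 KO and 0.34 over the 16 WT libraries. The product of Tnip1, ABIN-1, joins A20 to NEMO and other ubiquitinated proteins, and the gene lies on chromosome 11 at 54910785 to 54962917, minus strand. In CD11c+ cells on HFD its level was 74, 50.4, 46 and 66.2 CPM in KO and 34.5, 37.9, 34.2 and 35.4 CPM in WT. On SD it was 79.3, 76.6, 73.8 and 85.6 CPM in KO and 31.6, 33.4, 30.6 and 40.5 CPM in WT. The KO libraries of the 2 diets overlap, and each lies above every WT library. CD206+ cells on HFD held 69.2, 61, 49.5 and 62.2 CPM in KO and 26.7, 28.3, 30.6 and 25.3 CPM in WT. On SD they held 74, 57.9, 69.9 and 81 CPM in KO and 28.1, 27.1, 22.8 and 25.5 CPM in WT. Over the whole study the lowest KO library, at 46 CPM, stood above the highest WT library, at 40.5 CPM. The log2 fold change of KO against WT was 0.74 ± 0.13 in CD11c+ cells on HFD (edgeR, adjusted p = 2.46e-05) and 1.21 ± 0.13 on SD (adjusted p = 1.35e-08). In CD206+ cells it was 1.12 ± 0.13 on HFD (adjusted p = 6.83e-08) and 1.45 ± 0.13 on SD (adjusted p = 1.35e-09). The 4 calls held in all 56 fits under other settings.

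The other differences of Tnip1 were small. CD11c+ exceeded CD206+ WT cells by 0.36 ± 0.13 on HFD (adjusted p = 0.0444) and by 0.39 ± 0.13 on SD (adjusted p = 0.00838), and the libraries do not overlap on either diet. The HFD call was lost when any library of the pair but CD206+ WT HFD replicate 3 was left out (adjusted p = 0.0599 to 0.1), and the SD call without CD11c+ WT SD replicate 4 (adjusted p = 0.0549). With library totals neither passed (adjusted p = 0.0781 on HFD and 0.115 on SD), and with RLE factors the HFD value gave 0.0546. In KO cells the population contrast was -0.03 ± 0.12 on HFD (adjusted p = 0.855) and 0.16 ± 0.12 on SD (adjusted p = 0.293), with overlap.

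Of the other ABIN genes, Tnip3 differed mainly between the populations and Tnip2 varied little. Tnip3 encodes ABIN-3, described in human cells as induced by bacterial lipopolysaccharide, and lies on chromosome 6 at 65525313 to 65634040, plus strand. In KO mice on HFD it stood at 179, 154, 134 and 183 CPM in CD11c+ and 99, 95, 51 and 89.1 CPM in CD206+ cells. In WT mice on HFD the levels were 218, 217, 172 and 186 CPM in CD11c+ and 117, 89.2, 78.7 and 114 CPM in CD206+ cells. CD11c+ libraries lie above CD206+ libraries in both genotypes. KO mice on SD held 173, 254, 187 and 196 CPM in CD11c+ and 80.3, 86.3, 76.2 and 147 CPM in CD206+ cells. WT mice on SD held 360.4, 320.3, 377 and 218 CPM in CD11c+ and 75.4, 49.9, 56 and 24.6 CPM in CD206+ cells. The WT SD groups hold both the highest and the lowest libraries of the gene. The log2 fold change of CD11c+ against CD206+ was 0.96 ± 0.25 in KO HFD (edgeR, adjusted p = 0.0022), 0.99 ± 0.25 in WT HFD (adjusted p = 0.00441), 1.06 ± 0.25 in KO SD (adjusted p = 0.000733) and 2.63 ± 0.26 in WT SD (adjusted p = 7.13e-10).

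Between genotypes Tnip3 went in opposite directions in the populations of SD-fed mice. KO exceeded WT in CD206+ cells by 0.92 ± 0.25 (adjusted p = 0.00676), with no overlap, and fell below WT in CD11c+ cells, at -0.65 ± 0.24 (adjusted p = 0.0447), with overlap. The difference between these genotype effects was -1.57 ± 0.35 (adjusted p = 0.00511). The CD11c+ call was lost without CD11c+ KO SD replicate 1, 3 or 4 or CD11c+ WT SD replicate 1, 2 or 3 (adjusted p = 0.0767 to 0.124), with library totals (0.0644) and with no filter on low counts (0.0519). On HFD the genotype effects were -0.29 ± 0.24 in CD11c+ (adjusted p = 0.371) and -0.26 ± 0.24 in CD206+ cells (adjusted p = 0.51). Tnip2, on chromosome 5 at 34496087 to 34513991, minus strand, and whose product ABIN-2 also binds the kinase TPL2, ranged from 54 to 87.6 CPM in KO and 55.8 to 88.3 CPM in WT libraries. Its group means ran between 62.6 CPM in CD11c+ WT HFD and 81.4 CPM in CD11c+ WT SD, and it passed the test in 1 of 18 contrasts, the diet contrast of CD11c+ WT cells. KO against WT in CD11c+ cells on SD gave -0.24 ± 0.12 (adjusted p = 0.132; 0.0251 without CD11c+ KO SD replicate 2).

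Among the genes whose products act with A20 as adaptor or ligase, differences were small. TAX1BP1 brings A20 to its substrates and is also an autophagy receptor. Its gene, on chromosome 6 at 52713729 to 52766780, plus strand, ranged from 126 to 187 CPM in KO and 112 to 184 CPM in WT libraries, and it passed the test in 0 of 18 contrasts (by DESeq2 likewise 0, and 0 at an unadjusted p under 0.05). Over the 12 contrasts between pairs of groups its log2 fold changes ran from -0.22 to 0.14 with 95% intervals inside -0.46 to 0.39. When CD11c+ WT SD replicate 4 was left out, CD11c+ against CD206+ in WT SD passed at adjusted p = 0.0459 (log2 fold change 0.26). Rnf11, which encodes a small RING protein of the A20 complex and lies on chromosome 4 at 109451098 to 109484728, minus strand, was lower in KO than in WT CD11c+ cells on HFD, at 67, 75.7, 79.7 and 71.5 CPM in KO and 91, 91.4, 88.7 and 88.2 CPM in WT. The WT libraries lie within a narrow span above the KO libraries, and the log2 fold change was -0.29 ± 0.08 (edgeR, adjusted p = 0.00416). In the other 3 genotype contrasts Rnf11 had log2 fold changes of -0.10 in CD11c+ cells on SD, -0.14 in CD206+ cells on HFD and -0.11 in CD206+ cells on SD, none past the threshold. On HFD against SD in CD11c+ WT cells it gave 0.17 ± 0.08 (adjusted p = 0.0775, and 0.0249 without CD11c+ WT SD replicate 3). Over the 14 alternative fits of that contrast the adjusted p of Rnf11 went as low as 0.0154.

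Itch encodes a HECT ligase whose loss causes inflammatory disease in mice, and lies on chromosome 2 at 155133509 to 155226855, plus strand. Its highest level was in CD11c+ WT SD cells, at 165, 222, 180.0 and 213 CPM, against 112, 137, 124 and 153 CPM in CD206+ WT SD cells. On HFD, CD11c+ cells held 207, 157, 172 and 166 CPM in KO and 139, 142, 142 and 151 CPM in WT. The CD11c+ WT SD libraries lie above both WT groups named here, and the genotypes on HFD do not overlap either. CD11c+ exceeded CD206+ in WT SD by 0.57 ± 0.12 (edgeR, adjusted p = 0.000121), and the genotype contrast of CD11c+ cells on HFD, KO minus WT, gave 0.29 ± 0.12 (adjusted p = 0.0505). That genotype contrast stands at the threshold: it passed by DESeq2 (adjusted p = 0.0423), with size factors of the RLE kind (adjusted p = 0.0491), when only the 2 groups were fitted (adjusted p = 0.0307), and without CD11c+ KO HFD replicate 2 or CD11c+ WT HFD replicate 4 (adjusted p = 0.0363 to 0.0404). In CD206+ cells on HFD the genotype contrast of Itch was 0.29 ± 0.12 (adjusted p = 0.072; 0.0198 without CD206+ KO HFD replicate 1).

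The deubiquitinases Cyld and Otud7b differed in opposite directions between the genotypes. CYLD cuts the linear and other non-degradative chains that A20 also contacts. Its gene, on chromosome 8 at 88697028 to 88751945, plus strand, was higher in KO than in WT cells in 3 of 4 settings. In CD206+ cells on SD it stood at 70.9, 67.1, 68.1 and 82.2 CPM in KO and 52.7, 47.9, 49.6 and 55.4 CPM in WT. In CD206+ cells on HFD it stood at 65.1, 70.6, 60.3 and 67.2 CPM in KO and 59.5, 47.8, 55.5 and 57.9 CPM in WT. On both diets the genotypes are apart, though on HFD by less than 1 CPM. The log2 fold changes were 0.49 ± 0.09 on SD (edgeR, adjusted p = 7.82e-05) and 0.25 ± 0.09 on HFD (adjusted p = 0.0307). The HFD call was lost without CD206+ KO HFD replicate 1, 2 or 4 or CD206+ WT HFD replicate 2 (adjusted p = 0.0519 to 0.118), with library totals (0.0743) and with no filter on low counts (0.0651).

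CD11c+ cells on HFD held 82.1, 75.3, 65.1 and 77.5 CPM of Cyld in KO and 65.6, 60.2, 60.4 and 65.3 CPM in WT. On SD they held 92.4, 89.8, 76.9 and 98.5 CPM in KO and 96.9, 93.5, 92.3 and 96.8 CPM in WT. The HFD groups overlap at 1 KO library, and the SD groups overlap widely, with WT tightly bunched at a high level. The log2 fold changes were 0.26 ± 0.09 on HFD (adjusted p = 0.0178; 0.0716 without CD11c+ KO HFD replicate 1 and 0.0512 with library totals) and -0.09 ± 0.08 on SD (adjusted p = 0.491). CD11c+ exceeded CD206+ cells by 0.89 ± 0.09 in WT SD (adjusted p = 5.22e-10) and by 0.31 ± 0.08 in KO SD (adjusted p = 0.0031). On HFD the population contrast was 0.19 ± 0.09 in WT (adjusted p = 0.114; 0.0351 with the replicate number as a block) and 0.19 ± 0.08 in KO (adjusted p = 0.0685; 0.0164 to 0.0433 without CD11c+ KO HFD replicate 3 or CD206+ KO HFD replicate 2).

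Otud7b encodes an OTU enzyme related to A20 that trims chains on TRAF3, and lies on chromosome 3 at 96104527 to 96161129, plus strand. It was lower in KO cells in 3 of 4 settings and lower in CD11c+ than in CD206+ cells in all 4. CD11c+ cells on HFD held 3.84, 5.59, 5.61 and 4.07 CPM in KO and 8.53, 8.15, 6.94 and 7.53 CPM in WT, a log2 fold change of -0.70 ± 0.19 (edgeR, adjusted p = 0.0047). CD206+ cells on SD held 7.83, 8.75, 8.16 and 6.29 CPM in KO and 11.2, 12.3, 17.8 and 19.5 CPM in WT, a log2 fold change of -0.97 ± 0.19 (adjusted p = 0.000282). In both settings every KO library lies below every WT library. CD11c+ cells on SD gave -0.67 ± 0.20 (adjusted p = 0.0106) with overlapping libraries, and CD206+ cells on HFD gave -0.27 ± 0.18 (95% interval -0.65 to 0.11, adjusted p = 0.333). Between populations the log2 fold changes of CD11c+ against CD206+ were -1.28 in KO HFD, -0.85 in WT HFD, -0.83 in KO SD and -1.12 in WT SD (adjusted p = 4.91e-06 to 0.0017), and no libraries of the populations overlap within a genotype and diet.

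**Figure D2:**
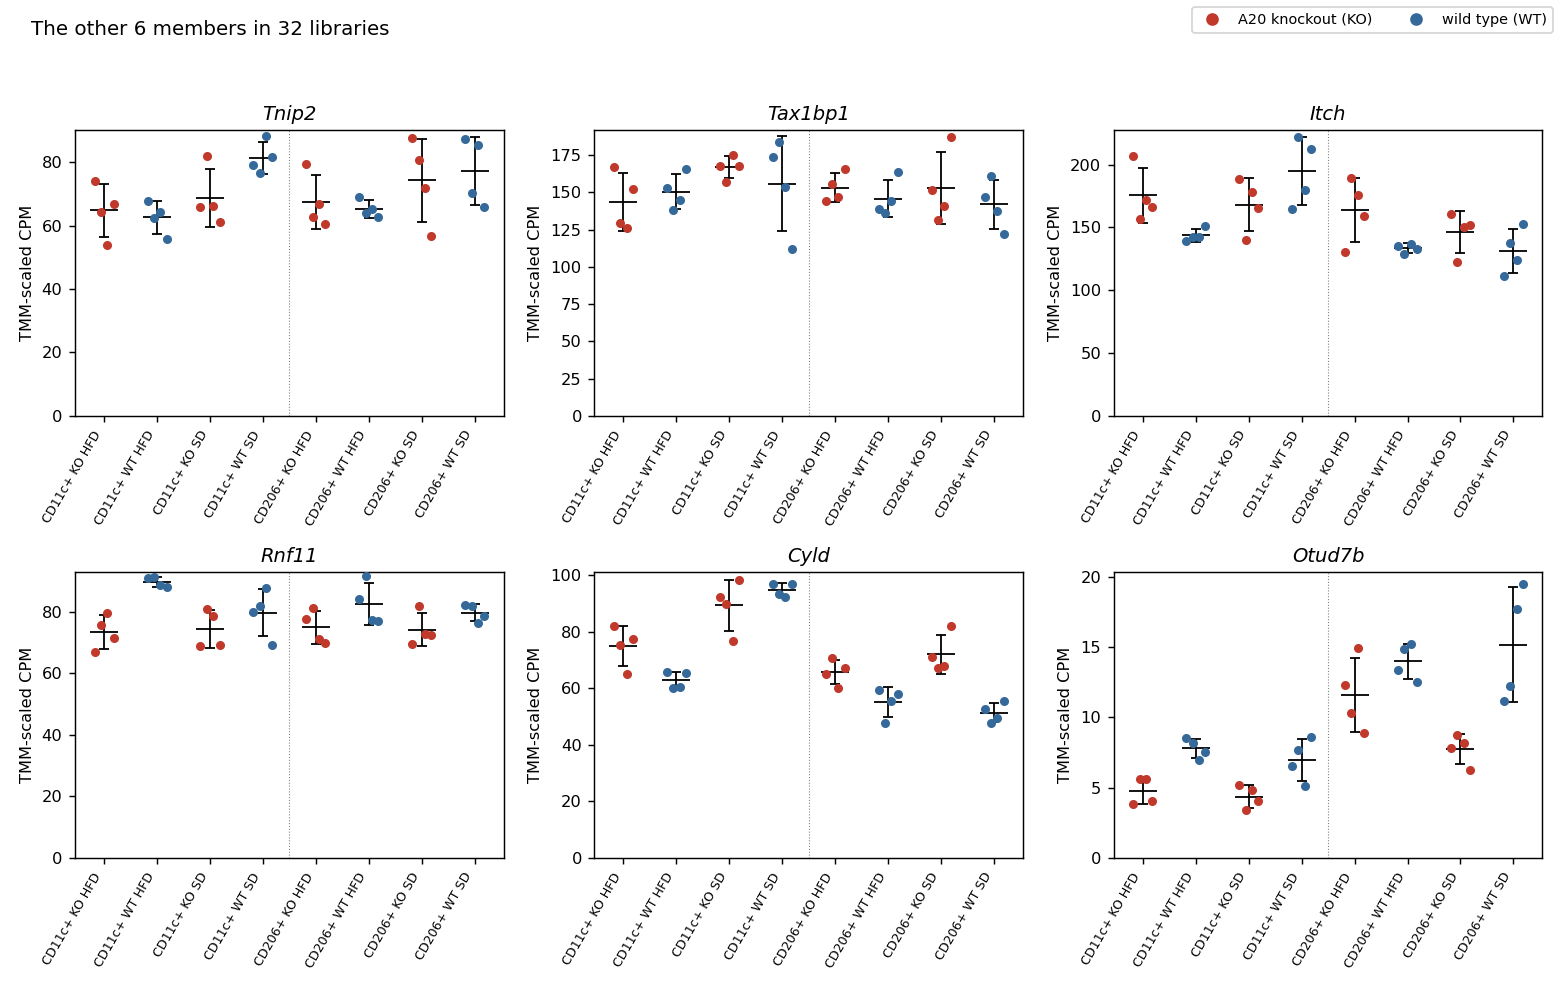
TMM-scaled CPM (vertical axis) of Tnip2, Tax1bp1, Itch, Rnf11, Cyld and Otud7b in the 8 groups (horizontal axis); points are libraries, red for KO and blue for WT, with the mean and SD of 4. Cyld and Itch are highest in CD11c+ WT SD cells, Otud7b is higher in CD206+ than in CD11c+ cells, and Tax1bp1 stays within 112 to 187 CPM in all 32 libraries.

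Across the 9 genes, KO cells had fewer Tnfaip3 reads and more Tnip1 reads in each setting, and the rest changed in some settings. In CD11c+ cells on HFD, 5 of 9 genes passed the test in KO against WT (Tnip1 and Cyld higher, Tnfaip3, Rnf11 and Otud7b lower), where 38.0% of all 13453 genes did. On SD 4 of 9 passed (Tnip1 higher, Tnfaip3, Tnip3 and Otud7b lower), against 26.8% of all genes. In CD206+ cells 3 of 9 passed on HFD (Tnip1 and Cyld higher, Tnfaip3 lower), against 21.8%, and 5 of 9 on SD (Tnip1, Tnip3 and Cyld higher, Tnfaip3 and Otud7b lower), against 24.5%. Apart from Tnfaip3, the deleted gene, 4, 3, 2 and 4 of the other 8 passed in these 4 settings, too few genes to set their share apart from that of all genes. The median log2 fold change of the 9 was -0.07 and -0.21 in CD11c+ cells on HFD and SD and 0.05 and 0.11 in CD206+ cells, beside medians of all genes between -0.03 and 0.00. KO and WT libraries did not overlap for 5 members in CD11c+ cells on HFD, where 34.7% of all genes were so parted, for 2 on SD (23.4%), for 3 in CD206+ cells on HFD (25.6%) and for 5 on SD (27.6%). Tnfaip3, the deleted gene, is among these members in each setting, and in CD11c+ cells on SD Tnip1 is the only other.

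**Figure D3:**
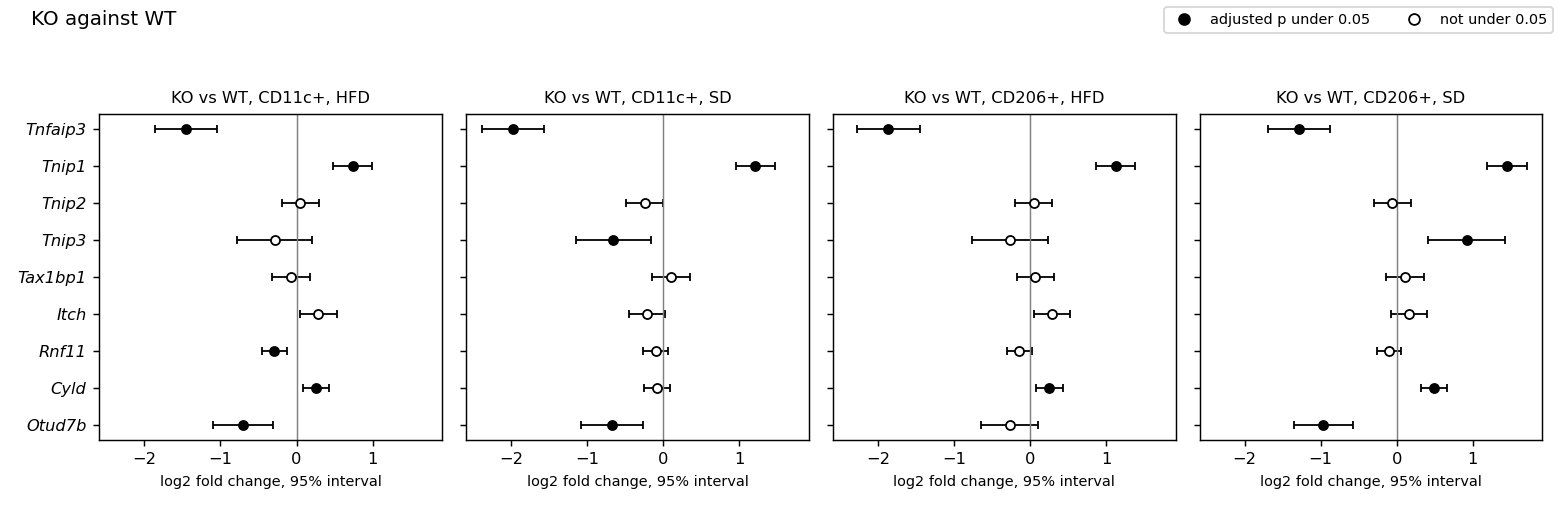
Log2 fold change of KO against WT (horizontal axis) for the 9 genes (vertical axis) in each population and diet, with the 95% interval; filled points passed edgeR's test at an adjusted p under 0.05. Tnfaip3 lies left of 0 and Tnip1 right of 0 in all 4 settings, Tax1bp1 and Tnip2 lie near 0, and Tnip3 changes side.

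Diet effects passed the test in WT cells and in no KO comparison. HFD against SD in CD11c+ WT cells gave 5 of 9 genes past the threshold, all of them lower (Tnfaip3, Tnip2, Tnip3, Itch and Cyld), where 46.3% of all genes passed and 22.6% were lower. Cyld gave -0.59 ± 0.09 (edgeR, adjusted p = 1e-06), and its HFD libraries, given above, all lie below its SD libraries. Itch had -0.44 ± 0.12 (adjusted p = 0.00249), Tnip3 -0.69 ± 0.24 (adjusted p = 0.0208) and Tnip2 -0.38 ± 0.12 (adjusted p = 0.00942). With library totals in place of TMM, which moves the median log2 fold change of all genes in this contrast to 0.12, beside 0.01, Tnip2 (adjusted p = 0.07) and Tnip3 (adjusted p = 0.0536) were no longer past the threshold. The call on Tnip3 was also lost without CD11c+ WT SD replicate 1 or 3 (adjusted p = 0.0638 to 0.0744). In this contrast 6 macrophage markers were higher and 2 lower (median 1.39), 7 of 7 stromal genes were higher, and 4 of 8 dendritic cell and 9 of 14 immediate early genes were lower. Lyz2, a myeloid lysozyme gene, averaged 13871 CPM on HFD and 27503 CPM on SD (log2 fold change -0.99 ± 0.13, adjusted p = 3.15e-07). The part of these shifts in the fall of the 5 genes was not tested. In CD206+ WT cells 1 of 9 passed, against 27.7% of all genes: Tnip3, higher on HFD by 0.95 ± 0.25 (adjusted p = 0.00435). There Itgax was also higher on HFD, at 20.7 to 50.3 CPM on HFD and at most 6.07 CPM on SD, and 12 of 14 immediate early genes were lower; their part was not tested.

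In KO cells 0 of 9 genes passed between the diets, where 0.00743% of all genes (1 gene) passed in CD11c+ and 0% (0 genes) in CD206+ cells. At an unadjusted p under 0.05 there were 3 members in CD11c+ cells (Tnip1, Cyld and Tnfaip3) and 1 in CD206+ cells (Otud7b), where 1221 and 831 of the 13453 genes had such a p. DESeq2 called 0 members in both, with 51 and 18 genes in all. Tnip1 gave -0.41 ± 0.12 in CD11c+ KO cells (adjusted p = 0.236), and it was the only member to pass when CD11c+ KO HFD replicate 1 was left out (log2 fold change -0.54, adjusted p = 0.0388). Otud7b gave 0.58 ± 0.19 in CD206+ KO cells (adjusted p = 0.579), where its libraries do not overlap.

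**Figure D4:**
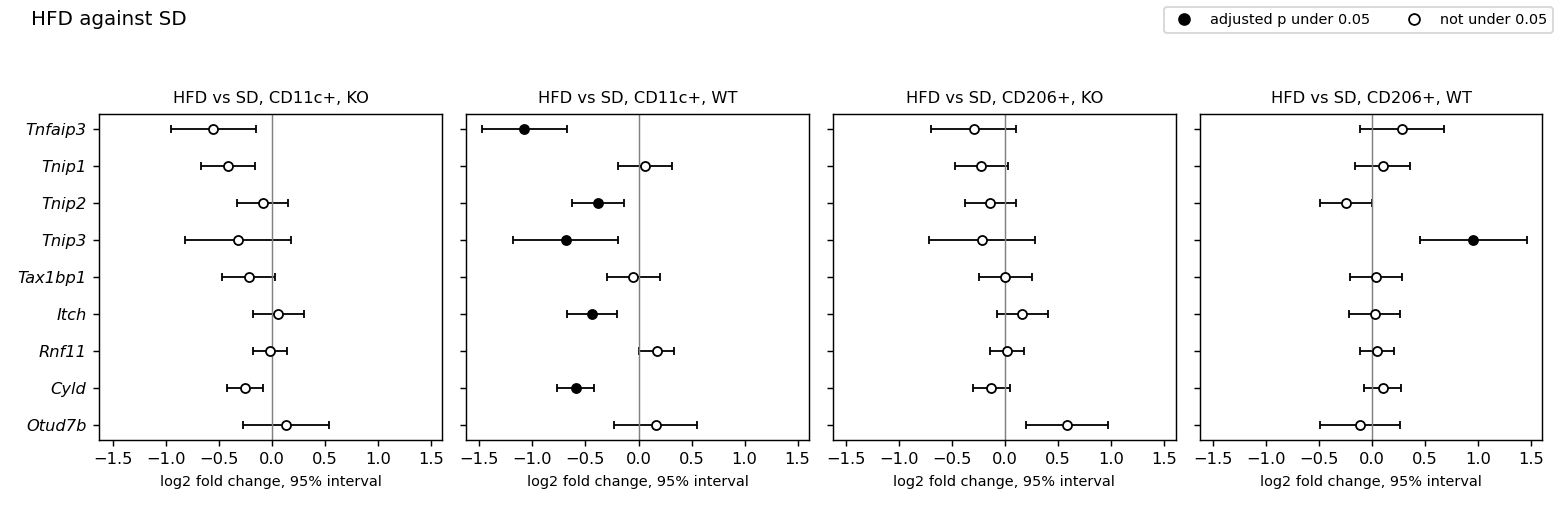
Log2 fold change of HFD against SD (horizontal axis) for the 9 genes (vertical axis) in each population and genotype, with the 95% interval; filled points passed edgeR's test at an adjusted p under 0.05. In CD11c+ WT cells 5 of 9 points are filled and left of 0, in CD206+ WT cells 1 is filled, and in KO cells none is.

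The population contrasts were read in the 4 settings of genotype and diet. CD11c+ against CD206+ gave 6 of 9 genes past the threshold in WT SD cells (Tnfaip3, Tnip1, Tnip3, Itch and Cyld higher, Otud7b lower), against 63.7% of all genes. In WT HFD cells 3 of 9 passed (Tnip1 and Tnip3 higher, Otud7b lower), against 20.4%. In KO SD cells 4 of 9 passed (Tnfaip3, Tnip3 and Cyld higher, Otud7b lower), against 51.7%, and in KO HFD cells 2 of 9 (Tnip3 higher, Otud7b lower), against 45.8%. Tnip3 and Otud7b passed in all 4.

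Whether the effects themselves differed was tested with interactions. Genotype by diet in CD11c+ cells was past the threshold for 3 of 9 genes, against 28.8% of all genes. Cyld gave 0.34 ± 0.12 (edgeR, adjusted p = 0.031) and Itch 0.50 ± 0.16 (adjusted p = 0.0214). For Itch the diet effect was 0.06 ± 0.12 in KO and -0.44 ± 0.12 in WT cells, and for Cyld -0.25 ± 0.08 in KO and -0.59 ± 0.09 in WT cells. Tnip1 gave -0.48 ± 0.18 (adjusted p = 0.0426), from diet effects of -0.41 ± 0.12 in KO and 0.06 ± 0.13 in WT cells. Each of these calls was lost without single libraries: Tnip1 in 13 of 16 such fits (adjusted p = 0.0517 to 0.109), being kept without CD11c+ KO HFD replicate 1 or 4 or CD11c+ WT SD replicate 4. Cyld was lost without CD11c+ KO HFD replicate 1, 2 or 4 or CD11c+ WT SD replicate 1 (adjusted p = 0.0529 to 0.0833), and Itch without CD11c+ KO HFD replicate 1 or CD11c+ WT SD replicate 2 (adjusted p = 0.0626 to 0.0699). In CD206+ cells 1 of 9 passed, against 11.9%: Tnip3 gave -1.18 ± 0.35 (adjusted p = 0.0252). It was lost without CD206+ KO HFD replicate 3, CD206+ WT HFD replicate 4 or CD206+ KO SD replicate 4 (adjusted p = 0.0507 to 0.0735), and when only its 4 groups were fitted (0.0605). In CD11c+ cells library totals left Itch at 0.0628 and Cyld at 0.113, and a fit of only the 4 groups left Tnip1 at 0.0674 and Cyld at 0.0534.

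Genotype by population was past the threshold for 2 of 9 genes on SD, against 6.57% of all genes, and for 0 of 9 on HFD, against 4.36% (1 member at an unadjusted p under 0.05, and 0 by DESeq2). On SD the 2 were Tnip3 and Cyld, whose KO effect was lower in CD11c+ than in CD206+ cells, for Cyld with a difference of -0.57 ± 0.12 (adjusted p = 0.00344). For Tnfaip3 this interaction on SD was -0.69 ± 0.28 (adjusted p = 0.136). With the replicate number as a block within each genotype and diet it was -0.74 and passed (adjusted p = 0.00522), and 1612 genes passed in all, against 884 without the block. The labels do not say that a number marks 1 mouse. Deviations of same-numbered libraries of the populations correlated at 0.13 to 0.43 in KO SD, while in WT SD 1 of the 4 correlations was under 0.1. Diet by population was past the threshold for 4 of 9 genes in WT cells, against 32.4% of all genes, and for 0 of 9 in KO cells, against 0% (0 of 9 at an unadjusted p under 0.05 and 0 by DESeq2). In WT cells the HFD effect on Tnfaip3, Tnip3, Itch and Cyld was lower in CD11c+ than in CD206+ cells, with differences of -1.64 ± 0.35 for Tnip3 (adjusted p = 0.000538), -0.70 ± 0.12 for Cyld (adjusted p = 5.64e-05) and -0.46 ± 0.17 for Itch (adjusted p = 0.0309). The call on Itch was lost without CD11c+ WT SD replicate 2 or 4 or CD206+ WT SD replicate 3 (adjusted p = 0.0541 to 0.0888) and with library totals (0.0932).

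The genes around A20 were read from 3 lists. Of 14 genes that NF-kB induces, 7 rose and 1 fell in KO against WT CD11c+ cells on HFD (median log2 fold change 0.49), beside 18.6% of all genes that rose and 19.4% that fell. On SD 4 rose and 5 fell (median -0.03; all genes 13.2% and 13.6%). In CD206+ cells 4 rose and 3 fell on HFD (median -0.06; all genes 10.5% and 11.3%), and 8 rose and 1 fell on SD (median 0.45; all genes 11.8% and 12.7%). Members of the list went both ways in each setting. Relb, the NF-kB subunit of the non-canonical pathway, had 119.8 ± 20.6 CPM in KO and 57.5 ± 4.91 CPM in WT in CD11c+ cells on HFD (SD, n = 4 each; log2 fold change 1.06 ± 0.12, edgeR, adjusted p = 2.82e-08) and rose in the other 3 settings too. Traf1, an adaptor of TNF receptors, had 84.9 ± 16.1 CPM in KO and 20.9 ± 2.82 CPM in WT in the same cells (2.02 ± 0.18, adjusted p = 7.16e-10), and it also rose in all 4; 1 of its WT libraries there held 16.6 CPM and the other 3 held 22.1 to 22.4 CPM. Nfkbie, an NF-kB inhibitor, rose in all 4 as well, by 1.05 ± 0.17 in CD206+ cells on SD (adjusted p = 1.96e-05). Cd83, a surface protein of activated antigen-presenting cells, fell in 3 settings, with 874 ± 295 CPM in KO and 1716 ± 357 CPM in WT and a log2 fold change of -0.97 ± 0.26 in CD11c+ cells on SD (adjusted p = 0.00567). In the same CD11c+ cells on HFD the monocyte genes summed to 1257 to 1459 CPM in KO and 302 to 489 CPM in WT, and all 6 rose. There 8 of 8 dendritic cell genes also rose (median 1.48; sums 93.6 to 287 CPM in KO and 34.5 to 116 CPM in WT), as did 6 of 7 tested T and NK cell genes (median 3.15), and the part of these cells in the counts was not tested.

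Of 18 genes of the receptor complexes on which A20 acts, 5 rose and 0 fell in CD11c+ KO cells on HFD, 2 and 2 on SD, 4 and 1 in CD206+ KO cells on HFD and 9 and 1 on SD, with median log2 fold changes of 0.17, 0.07, 0.07 and 0.25. As shares of all genes, 18.6% rose and 19.4% fell, 13.2% and 13.6%, 10.5% and 11.3%, and 11.8% and 12.7% in these settings, so that 2 and 2 of 18 is near the background. Traf2, a ligase adaptor of TNF receptors, and Birc2, which encodes the ligase cIAP1 that ubiquitinates RIPK1, rose in all 4. In CD206+ cells on SD Traf2 had 54.9 ± 4.04 CPM in KO and 33.5 ± 2.39 CPM in WT (0.71 ± 0.11, edgeR, adjusted p = 9.6e-06) and Birc2 46.2 ± 2.38 CPM in KO and 30.3 ± 2.26 CPM in WT (0.61 ± 0.12, adjusted p = 0.000428), with 1 KO library at 42.6 CPM and the others at 47.2 to 47.8 CPM. Ripk3, the kinase of necroptosis, rose in 3, by 0.62 ± 0.15 in CD11c+ cells on HFD (adjusted p = 0.00139). Malt1, a paracaspase that cuts A20 in lymphocytes, rose in CD206+ cells on SD with a wide spread, at 69.6 ± 44.9 CPM in KO and 24.6 ± 6.33 CPM in WT (adjusted p = 0.00128); 1 WT library held 34.1 CPM and the others 20.6 to 22 CPM.

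Of 13 tested genes for linear ubiquitin enzymes and OTU or related proteases (14 listed), 4 rose and 2 fell in CD11c+ KO cells on HFD, 3 and 1 on SD, 3 and 2 in CD206+ KO cells on HFD and 3 and 1 on SD, with median log2 fold changes of 0.17, -0.05, 0.10 and 0.10. Beside the shares of all genes just given, the counts that rose are above the background in each setting and those that fell are near it. These are too few genes to set their share apart from that of all genes. Usp18, a protease that removes the ubiquitin-like protein ISG15 and is induced by interferon, had 39.7 ± 5.45 CPM in KO and 6.59 ± 2.53 CPM in WT in CD11c+ cells on HFD (2.60 ± 0.26, edgeR, adjusted p = 2.81e-09) and rose in all 4. Rnf31, the catalytic subunit of the linear chain ligase, rose by 0.54 ± 0.13 in CD11c+ cells on SD (adjusted p = 0.0018) and by 0.65 ± 0.12 in CD206+ cells on HFD (adjusted p = 0.000241). Otulin, which cuts linear chains, had 43.9 ± 5.13 CPM in KO and 55.6 ± 3.94 CPM in WT in CD11c+ cells on HFD (-0.34 ± 0.09, adjusted p = 0.00274). Otud1, a deubiquitinase of the OTU family, fell in 3 settings, with 13.1 ± 2.9 CPM in KO and 43.7 ± 6.71 CPM in WT in CD11c+ cells on HFD (-1.74 ± 0.16, adjusted p = 6.3e-10) and -0.44 ± 0.15 in CD206+ cells on SD (adjusted p = 0.0318).

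**Figure D5:**
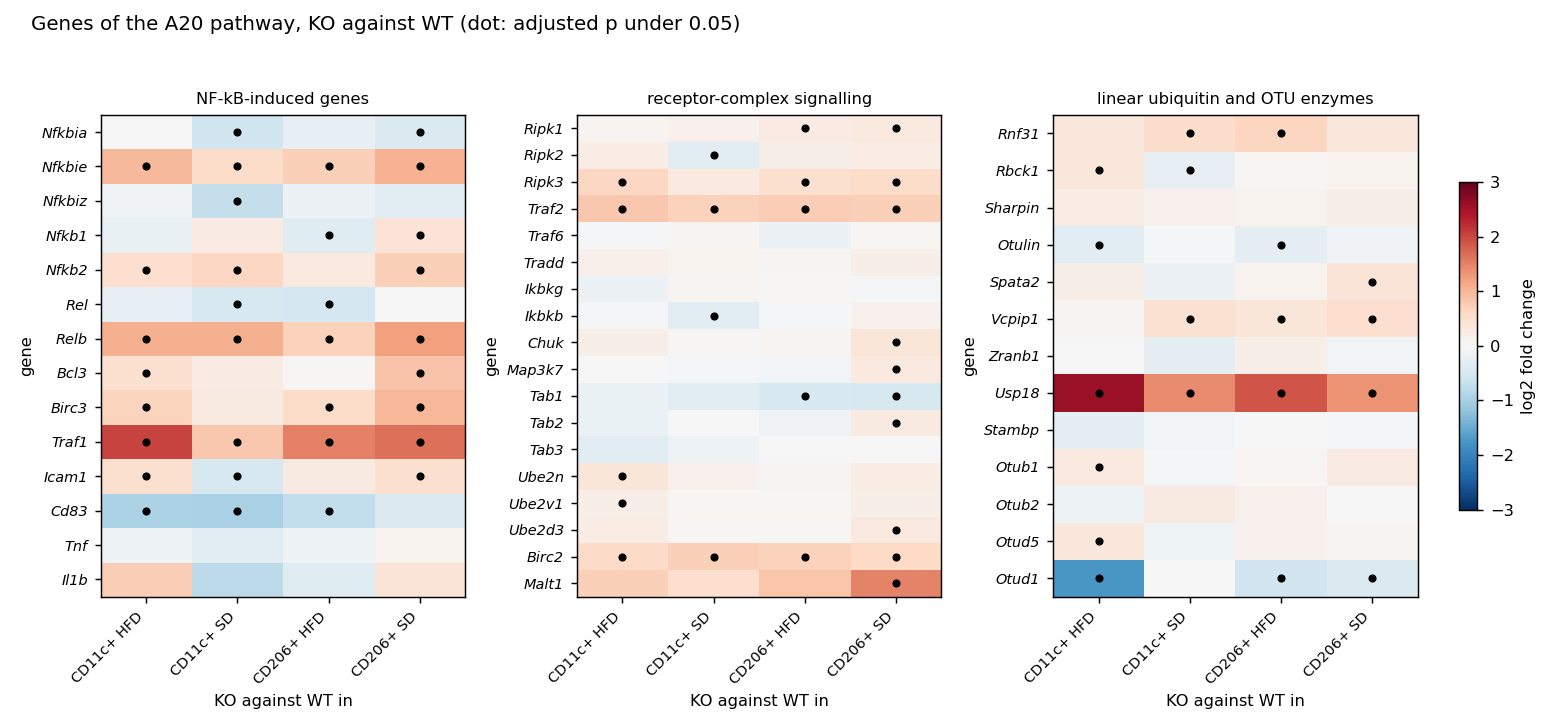
Log2 fold change of KO against WT (colour; red higher in KO, blue lower) for the genes of the 3 lists (rows) in each population and diet (columns); a dot marks an adjusted p under 0.05. Relb, Traf1, Nfkbie, Traf2, Birc2 and Usp18 are red with a dot in all 4 columns, and Cd83 and Otud1 are blue with a dot in 3 each.

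For each member the genes with the most similar profile were found by Pearson's r of log2 CPM among 12641 genes, as a description only, since libraries of a group and a sort share much of it. Over the 16 WT libraries the profile of Tnfaip3 was closest to Fem1c (r = 0.954), Tgif1 (0.947), Il1b (0.938), Mob1a (0.937) and Pradc1 (0.935). By ranks these genes were less close, with Spearman's rho from 0.732 for Tgif1 to 0.853 for Mob1a. Over all 32 libraries the genes close to Tnip1 included Tnfrsf14 (0.943) and Sod2 (0.94). Tnip3 was closest to Arpc2 (0.94), Hspa4 (0.939) and Ppp2ca (0.937), Cyld to Sowahc (0.937), Aim1 (0.931) and Pik3cd (0.926), and Otud7b to Foxp1 (0.907), Sft2d2 (0.905) and Mturn (0.9). The members with small differences had looser neighbours: the highest r was 0.868 for Itch (Klhl12), 0.848 for Tnip2 (Kdm6b), 0.821 for Rnf11 (Cav2) and 0.74 for Tax1bp1 (Ddx50).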

How the data were processed

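The authors deposited 1 table of raw read counts per gene symbol for each of 32 bulk RNA-seq libraries, with 5 entries that name no gene. The 5 entries entered neither library sizes nor tests; reads outside genes made up 5.16% to 11.1% and ambiguous reads 0.992% to 1.48% of a table. Per the submitters' processing notes, which name tools without their roles, TopHat2 2.1.0, Trimmomatic 0.35, FastQC 0.11.4 and SAMtools 0.1.18 were used with the mouse build mm10 (GRCm38). Counter, annotation and strand setting: not given in the sources used here, so overlapping genes could gain or lose reads. Members and lists were chosen with earlier results of these data known.

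The tests used edgeR 4.0.16 (R 4.3.3) with filterByExpr (minimum count 10), TMM scaling (factors 0.855 to 1.08) and 1 quasi-likelihood fit of 8 group means over the 32 libraries, with 12 pairwise contrasts and 6 interactions. P-values were adjusted by Benjamini-Hochberg over the 13453 genes of each contrast, with 0.05 as the threshold. Log2 fold changes have SEs from the fit. Levels are CPM, and per-kilobase levels use merged exons of GENCODE M21 basic transcripts. The fit was checked on simulated counts. No replicates agreed within sampling noise (chi-square per degree of freedom 10.4 to 63.8 between libraries of a group). Named genes are the 9 members, the sort genes and, from each pathway list, up to 3 genes with the largest fold change past the threshold in each KO against WT contrast, of which examples are given, and the genes of most similar profile, of which 1 is not reported here. Alternatives were RLE factors, library totals, DESeq2 1.42.0, no low-count filter, a fit of only the groups compared, the replicate number as a block, and leaving out each library. Same-numbered libraries of the populations deviated together in KO SD (correlation of deviations 0.13 to 0.43 in the 4 pairs) and WT HFD (0.26 to 0.48), so the block is given beside those results where it changed a call.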

Additional observations from a re-analysis of the deposited data

Results flagged for a closer look

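In CD206+ KO SD cells, replicate 4 held 147 CPM of Tnip3 against 76.2 to 86.3 CPM in the other 3 libraries, a gap that takes up 0.856 of the group's range. A library stood as far apart for 3 pathway genes: Traf1 in CD11c+ WT HFD replicate 1 (16.6 CPM, others 22.1 to 22.4; 0.939 of the range), Birc2 in CD206+ KO SD replicate 2 (42.6 CPM, others 47.2 to 47.8; 0.883) and Malt1 in CD206+ WT SD replicate 1 (34.1 CPM, others 20.6 to 22; 0.895). These are 4 of 144 sets of 4 libraries examined, where chance gives about 7.2 at 1 in 20. Without the outlying Tnip3 library, Tnip3 still rose in KO against WT CD206+ cells on SD (log2 fold change 0.68, adjusted p = 0.0462), but its genotype by diet interaction was no longer past the threshold, as given above.

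Effects that differed between settings by an interaction test in edgeR were these, as log2 differences of fold changes. Genotype by diet in CD11c+ cells differed for Tnip1 (-0.48), Itch (0.50) and Cyld (0.34), and in CD206+ cells for Tnip3 (-1.18). Genotype by population on SD differed for Tnip3 (-1.57) and Cyld (-0.57). Diet by population in WT cells differed for Tnfaip3 (-1.36), Tnip3 (-1.64), Itch (-0.46) and Cyld (-0.70). Each of these contrasts includes a WT SD group, and the immediate early sums were highest in CD206+ WT SD cells; their part in these differences was not tested.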

How the results depend on the processing

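Of 48 calls on members, 35 held their direction and call in every alternative run; over 773 refits of these calls 704 held and 69 lost the call, with 0 reversed. Of 114 results not past the threshold, 21 of 1999 refits passed. Genotype by diet in CD11c+ cells went to 1 of 9 genes both with library totals and when only its groups were fitted (3 in the main result), and in CD206+ cells to 0 with only its groups (1 in the main result). Leaving out 1 library, these counts ran from 1 to 3 and 0 to 2, and HFD against SD in CD11c+ KO cells from 0 to 1. Library totals changed the share of higher calls among all genes to 36.8% from 48.1% in KO against WT CD206+ cells on HFD and to 38.0% from 48.3% on SD, to 63.5% from 51.3% in HFD against SD CD11c+ WT cells, for CD11c+ against CD206+ to 40.1% from 57.4% in WT HFD and to 34.4% from 47.4% in WT SD, and for the interactions to 36.8% from 48.1% (genotype by diet, CD11c+), 80.8% from 62.3% (genotype by population, SD; 50.3% with only its groups) and 63.3% from 50.6% (diet by population, WT). They moved the median of all genes to -0.25 from -0.06 for CD11c+ against CD206+ WT SD, and to -0.11, 0.11 and 0.14 in those interactions. In the 4 genotype contrasts the counts of the 3 pathway lists moved by at most 3 genes over all alternatives. The replicate block within a genotype and diet gave Cyld an adjusted p of 0.0231 in CD11c+ against CD206+ KO HFD cells. Correlations of same-numbered libraries there do not settle whether the numbers pair them. In genotype by population, all 4 such correlations were over 0.1 in only 1 genotype on each diet. The block gave Tnfaip3 0.00522 there on SD (-0.74), and over all genes 1209 calls on HFD (586 without) and 1612 on SD (884 without). Of the 4 same-numbered pairs of the populations, 4 correlated best with their own number in KO SD and 4 in WT HFD. In KO HFD 2 did so and in WT SD 3 (correlations -0.03 to 0.35 and 0.06 to 0.28). Between genotypes or diets, 0 to 2 of 4 did so in each contrast. In KO SD and WT HFD cells the block changed no call on a member but that on Cyld. Single libraries brought Tnip2 (0.0442) and Otud7b (0.0413 to 0.0485) past the threshold in genotype by diet, in CD11c+ and CD206+ cells, without CD11c+ KO SD replicate 2, and without CD206+ KO HFD replicate 4 or CD206+ WT SD replicate 1. Depth limits Otud7b most, with the fewest counts of the 9 genes.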
